A study of Mus musculus with 16 samples.

Results

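The subject is the response of cultured mouse macrophages that keep Smad7 to 4 hours of TGF-β1. The members are the libraries labelled fl/fl, 4 untreated and 4 given TGF-β1, which make 8 of the 16 libraries of the series. They were chosen by their labels alone, and every gene with enough counts was compared between the 2 groups. Both groups came from C57BL/6 mice with 2 floxed Smad7 alleles and no Cre recombinase, littermates of the knockout mice, whose Cre is tamoxifen-inducible and driven by the CAGG promoter. Tamoxifen was given to both genotypes, at 20 mg/kg for 5 days from an age of 1 month, so untreated here still means exposed to tamoxifen. Tibial marrow was taken 2 weeks later and grown in 15% serum with CSF-1, the main growth factor of macrophages (12 ng/ml over 24 hours, 120 ng/ml over the next 48). Serum was then withheld for about 12 hours, after which the treated cells received TGF-β1 at 10 ng/ml for 4 hours. The labels do not say whether replicates were separate mice or separate dishes, so p-values measure the spread between these libraries, which may be technical. They also speak of 8 cDNA libraries where 16 samples are listed.

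TGF-β1 is a secreted cytokine that is stored in a latent form and released by integrins and proteases. Active TGF-β binds a type II receptor, which activates a type I receptor, and that receptor phosphorylates Smad2 and Smad3, which enter the nucleus with Smad4 and act with partner factors such as the RUNX proteins. Cells shut the pathway down with inhibitors that the pathway itself induces, among them the inhibitory Smads Smad6 and Smad7. In macrophages TGF-β is known for restraining inflammatory gene expression and, in the brain, for sustaining the identity of microglia.

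Total counts per library were 16865591 to 23741079. Macrophage markers had the highest sums. The 10 macrophage markers summed to 20855 to 22935 CPM (counts scaled to the library's effective size) in untreated and 16936 to 21162 CPM in TGF-β1 libraries. Lyz2 was the largest part of that sum, with a mean of 10747 CPM. The 10 neutrophil markers summed to 52.4 to 63.6 and 34.2 to 57.0 CPM, mostly from Mmp8. The B cell, T and NK cell, erythroid, mast cell and osteoblast lists were each under 4 CPM in every library, with Cd3e and Mcpt8 at 0. The 7 endothelial markers summed to 71.1 to 84.2 CPM untreated and 105 to 146 CPM with TGF-β1, almost wholly through Vwf, while 5 of them averaged under 1 CPM. The 8 osteoclast markers summed to 27.0 to 33.1 CPM untreated and 17.5 to 26.8 CPM treated, and the 7 megakaryocyte markers to 5.19 to 7.21 and 8.79 to 9.91 CPM. Of the 12 marker lists, the groups did not overlap for the endothelial, osteoclast and megakaryocyte sums, for osteoclast only narrowly (27.0 against 26.8 CPM). Over all tested genes, the groups did not overlap for 24.6%. The untreated libraries were unevenly spaced. Chi-square per gene, a measure of how far libraries differ, was 7.77 between replicates 1 and 2 and 7.67 between 3 and 4. Across these pairs it was 18.75 to 32.18, and among TGF-β1 replicates 1 to 3 it was 16.47 to 23.45. Untreated replicates 1 and 2 held 16865591 and 17192812 counts, and 3 and 4 held 22917896 and 23741079. 1 library stood apart, TGF-β1 replicate 4. Its mitochondrial genes took 0.575% of counts against 1.54% to 1.83% in the other TGF-β1 and 1.82% to 2.25% in the untreated libraries. It held a count for 14915 genes against 16688 to 17017 in the other TGF-β1 libraries. It lay away from them on the first principal component (50.7 against 20.1 to 22.6), which carried 59.7% of the variance. The same held on the second component (-34.0 against 12.5 to 23.5), which carried 21.3%. A set of genes was put apart as resembling ribosomal RNA after the data were seen, without comparing sequences. It took 0.423% to 1% of counts in untreated and 1.08% to 4.7% in TGF-β1 libraries. The part of these marker and library differences in the results was not tested.

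**Figure D1:**
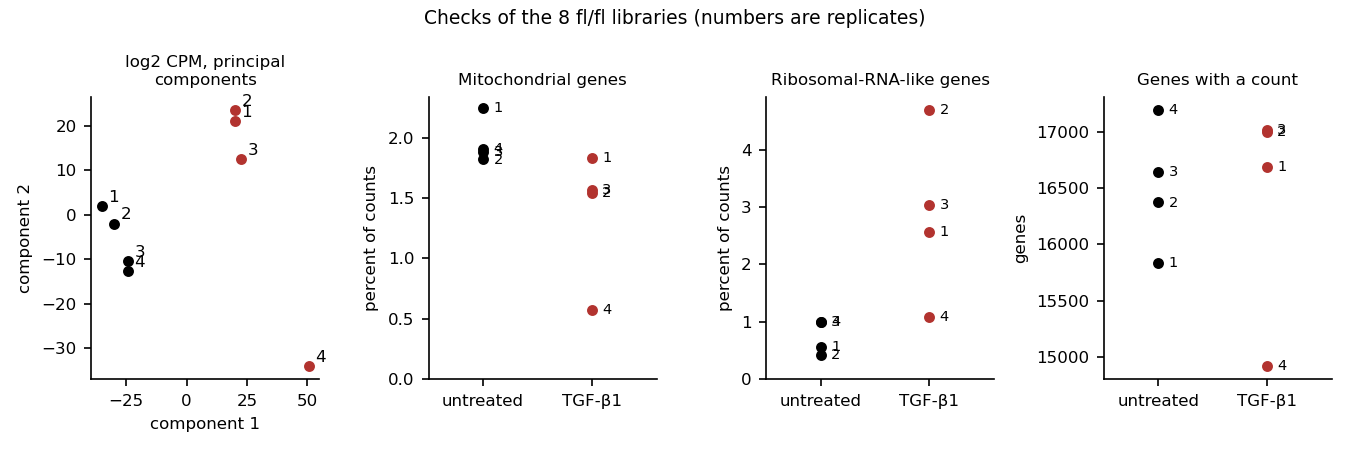
Checks of the 8 libraries, with numbers for replicates, black for untreated and red for TGF-β1. From the left: the first 2 principal components of log2 CPM, the percent of counts in mitochondrial genes, the percent in genes set apart as resembling ribosomal RNA and the number of genes with a count. The groups separate on component 1. TGF-β1 replicate 4 lies apart from the other TGF-β1 libraries on both components, at 0.575% mitochondrial counts and at 14915 genes.

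Of 35275 genes in the table, 12446 had enough counts to be tested, and 2204 of these (17.7%) differed between the groups (edgeR, adjusted p at most 0.05). TGF-β1 raised 1169 genes (9.39% of those tested) and lowered 1035 (8.32%). Without TGF-β1 replicate 4, 2812 genes passed, 1482 higher and 1330 lower, and 2161 of the 2204 were among them. Relative log expression scaling gave 1140 higher and 1042 lower genes and upper-quartile scaling 1119 and 1062. With limma on log2(FPKM + 1), which changes the test and the scale together, lower genes were the more numerous, 1334 against 957 higher. The median log2 fold change was 0.82 among the higher genes, -0.78 among the lower ones and 0.00 over all tested genes. Steep changes were mostly rises. At least 4-fold changes were fitted for 164 higher and 89 lower genes, at least 16-fold for 25 and 4, and at least 32-fold for 15 and 0. Genes under 1 CPM in untreated cells made up 105 of the higher and 9 of the lower genes. For 3064 of the 12446 tested genes (24.6%) the 4 TGF-β1 libraries did not overlap with the 4 untreated ones, and this held for 1139 of the higher and 995 of the lower genes. Leaving aside the genes resembling ribosomal RNA, the genes that rose took 11% to 11.6% of counts in untreated and 18.3% to 20.2% in TGF-β1 libraries, and the genes that fell went from 12.1% to 13.4% down to 6.63% to 7.36%. Both sets were chosen by their change in these same libraries. The directions of these shares follow from that choice, which also favours non-overlap. In bulk RNA, fewer cells of a type and less RNA per cell cannot be told apart.

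**Figure D2:**
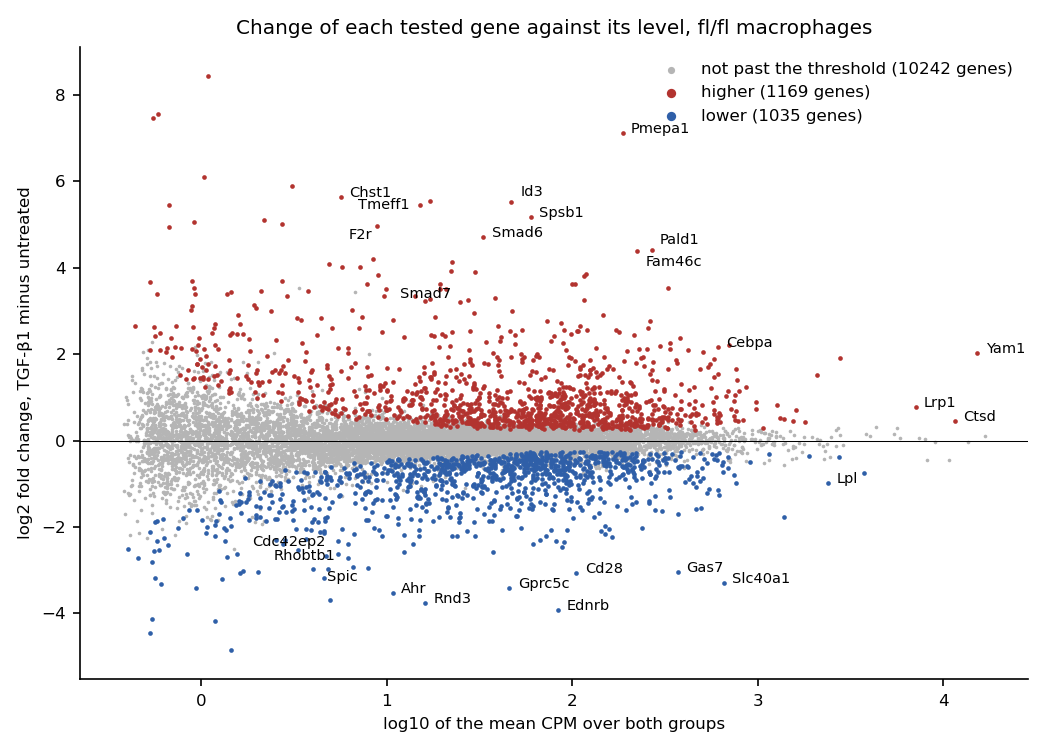
Log2 fold change of each tested gene, TGF-β1 minus untreated, against log10 of its mean CPM over both groups. Red marks the 1169 genes that rose, blue the 1035 that fell and grey the rest, and the named genes are among those with steep changes or large FPKM differences described in the text.

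The inhibitors of TGF-β signalling Pmepa1, Spsb1 and Smad6 were among the steepest rises of genes averaging at least 10 CPM in a group. Pmepa1, a membrane protein that binds Smad2 and Smad3 and limits their activation (chromosome 2, 173224458 to 173276533), was at 2.93, 3.02, 2.37 and 2.53 CPM in untreated replicates 1 to 4 and at 347, 341, 378 and 416 CPM with TGF-β1. Every treated library was over 100 times every untreated one, and the fitted change was 7.10 ± 0.13 log2 (SE; edgeR adjusted p = 1.6e-10). Spsb1, a SOCS-box adaptor that directs the type II receptor to degradation (chromosome 4, 149896283 to 149955043), went from 3.1, 2.85, 3.64 and 3.34 to 101, 95.6, 124 and 146 CPM, a change of 5.16 ± 0.17 log2 (edgeR adjusted p = 1.02e-08). Smad6, an inhibitory Smad best known for blocking BMP receptors (chromosome 9, 63953076 to 64022059), was at 2.75, 1.54, 3.43 and 1.91 CPM untreated and at 62.7, 56.1, 57.6 and 78.2 CPM with TGF-β1. It rose by 4.71 ± 0.23 log2 (edgeR adjusted p = 1.17e-07), and its groups lay far apart. Smad7 itself rose less steeply, from 3.8, 5.13, 5.88 and 4.64 to 36.5, 40.2, 45.3 and 57.9 CPM, or by 3.20 ± 0.18 log2 (edgeR adjusted p = 4.06e-07). For each of these 4 inhibitors, TGF-β1 replicate 4 was the highest library.

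The Smad6 start region is shown because it is among the few that hold the palindromic Smad box GTCTAGAC, the letters to which Smad3 and Smad4 bind. The sequence is RefSeq's, GRCm38.p6, chr9:64022050-64022259, minus strand, 200 bases before the annotated start and 10 from it, and capitals mark the box, which begins 4 bases before the start.
Smad6: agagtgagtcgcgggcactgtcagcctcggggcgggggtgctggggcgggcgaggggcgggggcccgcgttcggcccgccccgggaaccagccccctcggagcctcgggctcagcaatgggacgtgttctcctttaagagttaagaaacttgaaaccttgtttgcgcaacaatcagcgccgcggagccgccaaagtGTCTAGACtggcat
Promoters of 9074 tested genes, from 250 bases before to 50 after the start, were searched on both strands. The box was found in 18 of all 9074 (0.198%), in 5 of 882 promoters of genes that rose (0.567%) and in 2 of 750 of genes that fell (0.267%). The other 4 higher genes with it were Armc9, Klhl6, Dusp28 and Map4, and the 2 lower ones were Rmnd5b and Esr1. Shorter Smad motifs were common everywhere: CAGACA was in 18.1% of higher, 13.9% of lower and 15.5% of all promoters, and GGCGCC in 23.2%, 18.3% and 21.2%.

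Receptors, enzymes and a nuclear inhibitor were also among the steepest rises among genes averaging at least 10 CPM in a group. Id3, which blocks DNA binding of basic helix-loop-helix factors (chromosome 4, 136143497 to 136145755), went from 2.11, 1.71, 1.9 and 2.16 to 64.5, 68.1, 96.7 and 134 CPM, a rise of 5.52 ± 0.27 log2 (edgeR adjusted p = 1.17e-07). The groups were well apart, with treated replicate 4 the highest. It was also the highest for Chst1, a Golgi sulfotransferase, at 6.65, 6.68, 11 and 20.1 CPM treated against 0.163 to 0.285 CPM untreated (5.63 ± 0.47 log2, edgeR adjusted p = 7.96e-06). Tmeff1, a membrane protein with follistatin-like modules, rose by 5.45 ± 0.45 log2 and was the exception in that replicate 4 was its lowest treated library, at 13.6 CPM against 26.7 to 41.9 CPM. F2r, the thrombin receptor PAR1, rose by 4.95 ± 0.38 log2 from under 1 CPM to between 13.8 and 18.9 CPM. Pald1, a phosphatase-like protein, reached 477 to 565 CPM from 21.9 to 27.6 CPM (4.40 ± 0.11 log2), and Fam46c, a poly(A) polymerase, 328 to 517 CPM from 18.3 to 23.8 CPM (4.37 ± 0.16 log2). The 3 genes that passed with no count in any untreated library were picked after their values were seen. Against the 3 counts that a group total of 0 allows, the zinc finger gene Bnc2 (168 counts with TGF-β1 over the group) was at least 60.5-fold higher, the growth factor Fgf2 (90 counts) at least 32.4-fold and the antisense transcript Gm13070 (83 counts) at least 29.9-fold. Gm13070 (149904006 to 149908149) lies within Spsb1 on the opposite strand, and the strand option of the counting is not stated, so reads of overlapping genes cannot be told apart.

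**Figure D3:**
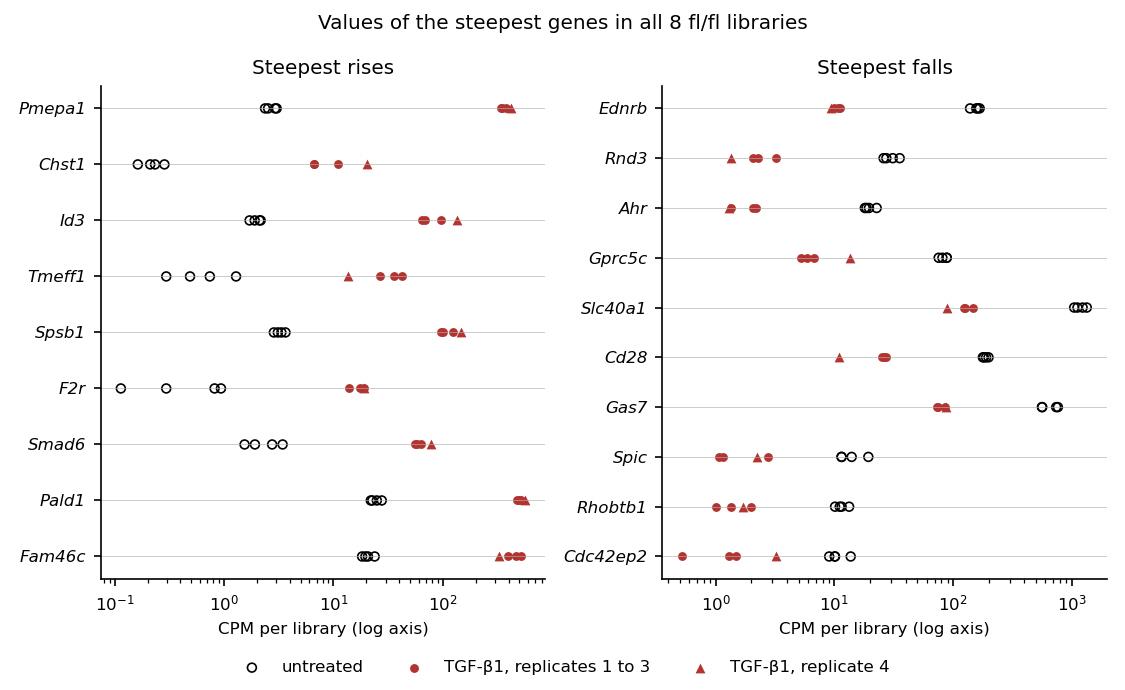
CPM on a log axis in each library for 9 of the 10 steepest rises (left) and the 10 steepest falls (right) among genes averaging at least 10 CPM in a group. Open circles are untreated libraries, filled circles TGF-β1 replicates 1 to 3 and triangles TGF-β1 replicate 4. The choice of these 19 genes required that treated and untreated libraries not overlap. Replicate 4 is among the extreme treated values for Chst1, Tmeff1, Gprc5c, Cd28 and Cdc42ep2.

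Among genes averaging at least 10 CPM in a group, the steepest falls included cell-surface receptors, small GTPase genes and an iron exporter. That ranking also required a characterised symbol and no overlap between the groups. Over all tested genes the lowest change was -4.85 log2. Ednrb, the endothelin B receptor (chromosome 14, 103814625 to 103844173), was at 168, 157, 139 and 162 CPM untreated and at 10.8, 11.2, 9.93 and 9.47 CPM with TGF-β1. It fell by 3.92 log2 (-3.92 ± 0.11, edgeR adjusted p = 3.47e-09), with little spread in either group. Slc40a1, the only known cellular iron exporter (ferroportin; chromosome 1, 45908068 to 45926523), went from 1120, 1051, 1342 and 1239 to 124, 126, 149 and 88.3 CPM (-3.29 ± 0.16 log2, edgeR adjusted p = 1.15e-07), and Spic, a transcription factor of iron-recycling macrophages, from 11.5 to 19.4 CPM to 1.07 to 2.77 CPM (-2.96 ± 0.31 log2, edgeR adjusted p = 4.62e-05). The co-stimulatory receptor Cd28 was at 190, 179, 199 and 182 CPM against 27.4, 25.3, 26.3 and 10.9 CPM (-3.06 ± 0.24 log2, edgeR adjusted p = 4.45e-06). Its fall was deepest in replicate 4. Ahr, the ligand-activated aryl hydrocarbon receptor (chromosome 12, 35497974 to 35535038), fell from 18.7, 22.8, 19.6 and 18.1 to 2.08, 2.21, 1.34 and 1.29 CPM (-3.52 ± 0.20 log2, edgeR adjusted p = 3.94e-07). Rnd3, an atypical small GTPase that opposes RhoA, changed by -3.77 ± 0.23 log2, Rhobtb1 by -2.91 ± 0.22 log2 and the Cdc42 effector Cdc42ep2 by -2.72 ± 0.40 log2. Gas7, an adaptor of membrane and actin remodelling, lay at 562 to 766 CPM untreated and 72.8 to 86.7 CPM treated (-3.04 ± 0.13 log2). The orphan receptor Gprc5c lay at 75.8 to 88.6 and at 5.23, 5.85, 6.68 and 13.7 CPM (-3.41 ± 0.26 log2), the highest of these in replicate 4.

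Ranked instead by the difference in FPKM, which divides counts by gene length and library total, the changes fell on abundant genes with smaller folds. The myeloid factor C/EBPα (Cebpa, chromosome 7, 35119293 to 35121926) rose from 86.3 ± 19.7 to 369 ± 58.8 FPKM (SD, n = 4), with 155, 216, 264 and 251 CPM untreated and 923, 863, 999 and 1187 CPM treated. The integrin subunit Itgb5 rose from 82.9 ± 7.63 to 364 ± 30.9 FPKM, and Tgfbi, a secreted matrix protein named for its induction by TGF-β, from 74.8 ± 4.13 to 296 ± 36.4 FPKM. The non-muscle myosin heavy chain Myh9 went from 149 ± 15.4 to 406 ± 45.1 FPKM, the endocytic receptor Lrp1 from 360 ± 35.7 to 588 ± 61.8, Fam129b from 118 ± 18.2 to 295 ± 46 and the selenium-metabolism enzyme Sephs2 from 74.9 ± 9.31 to 247 ± 16.4. These 7 rises were between 0.78 and 2.20 log2 with edgeR adjusted p from 5.29e-08 to 4.12e-04. The lysosomal protease gene Ctsd rose from 4710 ± 436 to 6122 ± 1038 FPKM (0.45 ± 0.12 log2, edgeR adjusted p = 0.02). That call was lost without untreated replicate 1, untreated replicate 2 or TGF-β1 replicate 3, where the change was 0.41, 0.41 and 0.43 log2 (edgeR adjusted p = 0.071, 0.0718 and 0.0519).

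The 2 remaining genes of that ranking were set apart as resembling ribosomal RNA after the data were seen. Their sequences were not compared with ribosomal RNA. Yam1 (chromosome 17, 39846958 to 39848788), whose interval overlaps the ribosomal-RNA-like RefSeq entry Rn18s-rs5, held 4645, 3171, 8077 and 8160 CPM untreated and 22054, 40896, 26268 and 8908 CPM with TGF-β1. Replicates 1 to 3 with TGF-β1 were far above the untreated libraries and replicate 4 only just above them (2.03 ± 0.42 log2, edgeR adjusted p = 0.00588). Lars2, the mitochondrial leucyl-tRNA synthetase, ran in parallel at 890, 913, 1430 and 1424 against 4132, 7517, 4256 and 1711 CPM, and so did Gm26917, named after its values were seen, at 52.2 to 116 against 220 to 640 CPM. The part of ribosomal RNA left in the libraries in these values was not tested. Without these genes 2202 genes passed, 2200 of them among the 2204.

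Among the genes that fell with high untreated FPKM were an iron exporter, a lipase and surface receptors. Slc40a1 went from 310 ± 35.9 to 30.2 ± 6.12 FPKM. Lipoprotein lipase, Lpl, went from 796 ± 44.8 to 381 ± 62 FPKM (-0.99 ± 0.12 log2, edgeR adjusted p = 1.79e-04), and the haem-degrading enzyme Hmox1 from 608 ± 184 to 332 ± 56.8 FPKM (-0.80 ± 0.19 log2, edgeR adjusted p = 0.0113), with untreated libraries spread from 716 to 1339 CPM. Rassf4, a Ras-association protein, went from 344 ± 69.5 to 96.1 ± 19.3 FPKM, the chemokine Ccl9 from 297 ± 19 to 118 ± 13.2 and Plekho2 from 218 ± 6.34 to 69.7 ± 5.91. The inhibitory receptor gene Lilrb4 (382 ± 75.8 to 186 ± 51.3 FPKM) and its near-identical neighbour Gp49a (265 ± 44.8 to 95.7 ± 28.6 FPKM) overlap on chromosome 10, so how reads divide between them is uncertain. Catalase, Cat, was at 1272, 1283, 1275 and 1298 CPM untreated and 1073, 1048, 1024 and 978 CPM treated, a small fall of 0.31 log2 that stood clear of the spread (edgeR adjusted p = 0.00844). The acid lipase gene Lipa fell by 0.35 log2 (edgeR adjusted p = 0.0251), a call lost when untreated replicate 1, 2 or 3 or TGF-β1 replicate 3 was left out, at -0.32, -0.36, -0.37 and -0.35 log2 (edgeR adjusted p = 0.0812, 0.0624, 0.0501 and 0.0612).

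The response was then read through 57 lists of genes grouped by function, with 1321 of 1324 listed symbols found in the table. Each count is of members tested, and should be set against the 9.39% of all tested genes that rose and 8.32% that fell. The members chosen as examples are those with the lowest p in each direction that held when libraries were left out, unless stated otherwise.

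**Figure D4:**
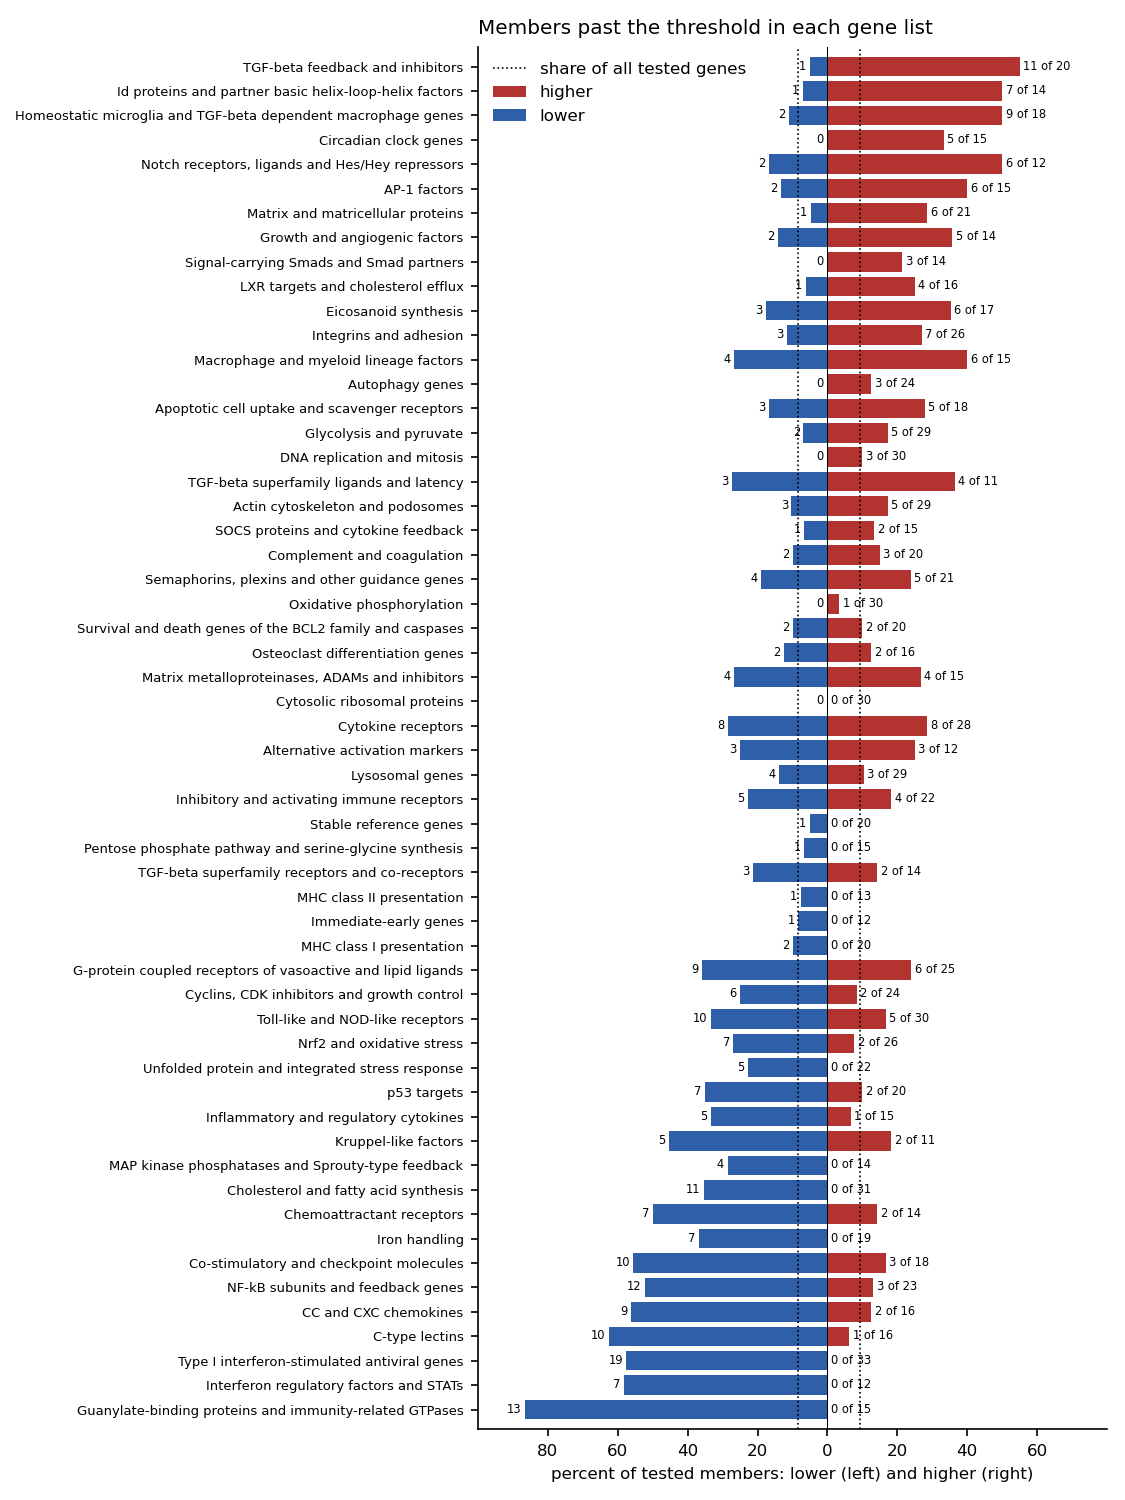
Percent of the tested members of each list that rose (red, right) and fell (blue, left), with counts at the bars' ends and dotted lines at the shares over all tested genes, 9.39% and 8.32%. Lists of inhibitors of TGF-β signalling, Id proteins, Notch genes and microglia genes stand at the top and those of guanylate-binding proteins and interferon-stimulated genes at the bottom.

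Among 26 listed inhibitors and feedback genes of TGF-β signalling, 20 were tested, 11 rose and 1 fell. Besides Pmepa1, Spsb1, Smad6 and Smad7, these were the Smad co-repressors Skil, Ski and Tgif1, the ubiquitin ligases Smurf1, Smurf2 and Nedd4l and the latency protein gene Ltbp3. Skil, named after its values were seen, was at 142, 135, 107 and 109 CPM untreated and 714, 707, 638 and 488 CPM treated (2.37 ± 0.15 log2), and Ski, likewise, at 232 to 266 against 790 to 921 CPM (1.78 ± 0.08 log2). Both groups were tight and far apart. The member that fell was Smad3, a signal carrier placed in this list, from 23.7 to 27.8 CPM to 13.7 to 17.8 CPM (-0.70 ± 0.12 log2, edgeR adjusted p = 0.00134). Smad3 was not counted in the separate list of signal-carrying Smads and partners. Of the 14 tested members of that list, 3 rose and none fell (1 with the replicate number as a block). Those 3 were the RUNX factors, with Runx3 from 2.34, 3.82, 4.06 and 3.22 to 29.2, 32.4, 39.5 and 52.9 CPM (3.51 ± 0.23 log2, edgeR adjusted p = 1.11e-06) and Runx2 at 1.46 ± 0.16 log2. The log2 fold changes of Smad2 and Smad4 were -0.11 ± 0.10 and -0.07 ± 0.09, not past the threshold.

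Receptors of the pathway that changed did so in both directions. Tgfbr1, the type I receptor, was at 283, 269, 246 and 221 CPM untreated and 923, 1038, 887 and 464 CPM treated, so it rose in every library but least in replicate 4 (1.70 ± 0.21 log2, edgeR adjusted p = 1.5e-04). Tgfbr2, the type II receptor that binds the ligand, fell from 254, 254, 264 and 271 to 187, 182, 196 and 185 CPM (-0.48 ± 0.07 log2, edgeR adjusted p = 6.48e-04). The BMP and activin type I receptor Acvr1 rose by 0.69 ± 0.11 log2 and the activin receptor Acvr2a fell by 1.05 log2. In all, 2 of 14 tested receptors and co-receptors rose and 3 fell, and 4 rose without TGF-β1 replicate 4.

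Genes that store and release the ligand also changed, while the ligand gene did not pass the threshold. Tgfb1 lay at 414 to 456 CPM untreated and 408 to 511 CPM treated (0.02 ± 0.09 log2). The integrin subunit Itgav, part of the integrins that release latent TGF-β, rose from 98.8 to 115 CPM to 425 to 557 CPM (2.19 ± 0.11 log2, edgeR adjusted p = 2.05e-07). Nrros, which tethers latent TGF-β1 on myeloid cells, fell from 270, 258, 249 and 261 to 91, 92, 82.9 and 96.6 CPM (-1.52 ± 0.08 log2, edgeR adjusted p = 2.07e-07). Itgb8, another activating subunit, was low throughout, at 0.55 to 1.37 and 0.0517 to 0.239 CPM. Of 11 tested ligand and latency genes, 4 rose and 3 fell.

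Genes of 2 regulatory systems, the Id proteins and Notch, rose more often than they fell. Among Id proteins and basic helix-loop-helix factors 7 of 14 tested rose and 1 fell. Bhlhe40, a repressor and clock component, went from 5.91, 6.84, 6.14 and 9.13 to 64.3, 71.8, 65.2 and 76.8 CPM (3.30 ± 0.15 log2, edgeR adjusted p = 8.75e-08), and 2 more Id genes, named after their values were seen, rose with Id3. Id2 went from 15.5 to 26.3 CPM to 73.2 to 101 CPM (2.00 ± 0.16 log2), and Id1 from at most 0.423 CPM to 1.43 to 1.72 CPM (2.63 ± 0.57 log2). The exception was Tfec, a macrophage factor of the MiT family (-1.48 ± 0.14 log2). Of 12 tested Notch pathway genes 6 rose and 2 fell. The receptors Notch1 (109 to 141 against 387 to 446 CPM, 1.62 ± 0.10 log2) and Notch4 (3.83 to 6.86 against 37.4 to 66.3 CPM, 3.25 ± 0.22 log2) rose and so did the target repressor Hes1. Hes1, named after its values were seen, was at 0.117, 0, 0.212 and 0.0407 CPM untreated and 4.93, 3.9, 8.36 and 6.98 CPM treated (5.89 ± 0.53 log2, edgeR adjusted p = 1.31e-05). The DNA-binding subunit Rbpj (-1.43 ± 0.13 log2) and Notch2 (-0.86 ± 0.13 log2) fell. Per gene length, Notch1 and Notch2 were at 41.7 ± 3.49 and 33.3 ± 4.02 FPKM treated and 14.2 ± 1.54 and 63.4 ± 9.85 FPKM untreated.

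Other factor families split. Of 15 tested AP-1 factors 6 rose, among them Fosl2 (0.95 ± 0.12 log2) and Atf3 (0.85 ± 0.09 log2), and Jund (-0.59 ± 0.10 log2) and Batf2 (-1.23 ± 0.27 log2) fell. Of 11 Krüppel-like factors 2 rose and 5 fell, with Klf2, a restrainer of inflammation, from 20.3 to 27.3 CPM to 4.71 to 6.4 CPM (-2.06 ± 0.15 log2) and Klf6, which promotes it, from 323 to 341 to 156 to 218 CPM (-0.78 ± 0.11 log2). Among 12 immediate-early genes Egr2 alone passed (-1.53 ± 0.24 log2), and 2 fell without replicate 4 and also with the replicate number as a block. Of 15 macrophage lineage factors 6 rose and 4 fell. Maf, which helps to hold macrophages in a differentiated state, fell from 534, 568, 607 and 560 to 182, 165, 177 and 173 CPM (-1.70 ± 0.08 log2, edgeR adjusted p = 8.91e-08).

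Of 18 tested genes of homeostatic microglia and TGF-β-dependent macrophages 9 rose and 2 fell, with a median log2 fold change of 0.95. Cx3cr1, the fractalkine receptor, named after its values were seen, was at 59.1, 66.9, 42.6 and 42.5 CPM untreated and 683, 685, 547 and 505 CPM treated (3.52 ± 0.18 log2, edgeR adjusted p = 1.78e-07). Olfml3, a secreted matrix-associated protein, went from 1.96 to 3.3 CPM to 34.3 to 47.9 CPM (3.92 ± 0.18 log2, edgeR adjusted p = 9.23e-08), and the Golgi protein gene Golm1 from 25 to 27.1 CPM to 144 to 163 CPM (2.56 ± 0.08 log2, edgeR adjusted p = 1.02e-08). The microglia markers Tmem119 and P2ry12, also named afterwards, stayed low: Tmem119 reached 3.8 to 7.02 CPM from 0.798 to 1.67 CPM (2.25 ± 0.29 log2) and P2ry12 6.88 to 12.7 CPM from 3.02 to 4.68 CPM (1.13 ± 0.22 log2). Mef2c, a factor active in microglia, fell from 105 to 121 CPM to 40.5 to 71.2 CPM (-0.92 ± 0.16 log2).

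Interferon-linked genes fell in numbers, and no tested member of 3 such lists passed as higher. Of 15 tested guanylate-binding proteins and immunity-related GTPases, which attack intracellular pathogens, 13 fell, with a median log2 fold change of -1.52 against 0.00 over all tested genes. Gbp7 was at 88.6, 70.8, 47.2 and 48.6 CPM untreated and 13.8, 8.78, 12.5 and 7.66 CPM treated (-2.58 ± 0.25 log2, edgeR adjusted p = 2.28e-05). Irgm2 was at 115, 104, 72 and 71.7 CPM untreated and 35.3, 29.9, 28 and 33.6 CPM treated (-1.52 ± 0.17 log2, edgeR adjusted p = 6.29e-05). The groups did not overlap for either gene, and untreated replicates 1 and 2 were higher than 3 and 4.

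Of 33 tested antiviral genes stimulated by type I interferon 19 fell (27 with the replicate number as a block, 17 without TGF-β1 replicate 4), with a median of -0.78 log2. Rsad2, the antiviral enzyme viperin, was at 373, 302, 188 and 221 CPM untreated and 88.7, 48.6, 49.9 and 44.5 CPM treated (-2.23 ± 0.26 log2, edgeR adjusted p = 1.08e-04). Its neighbour Cmpk2, a mitochondrial nucleotide kinase, was at 195, 172, 116 and 122 against 44.4, 32, 35.6 and 31.2 CPM (-2.08 ± 0.18 log2, edgeR adjusted p = 1.26e-05). The antiviral GTPase Mx1, named after its values were seen, was at 158, 131, 73.6 and 82.2 against 34, 20.8, 20.2 and 15.6 CPM (-2.29 ± 0.29 log2, edgeR adjusted p = 1.69e-04). The order among the untreated libraries was again the same, with replicates 1 and 2 the highest. Of 12 tested interferon regulatory factors and STATs 7 fell, with a median of -0.51 log2 and a range from -2.62 to 0.13. Irf1 was at 77.5, 77, 61 and 66.2 against 30.8, 30.5, 29.9 and 34.2 CPM (-1.17 ± 0.11 log2, edgeR adjusted p = 1.36e-05) and Irf2 fell by 0.48 log2.

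**Figure D5:**
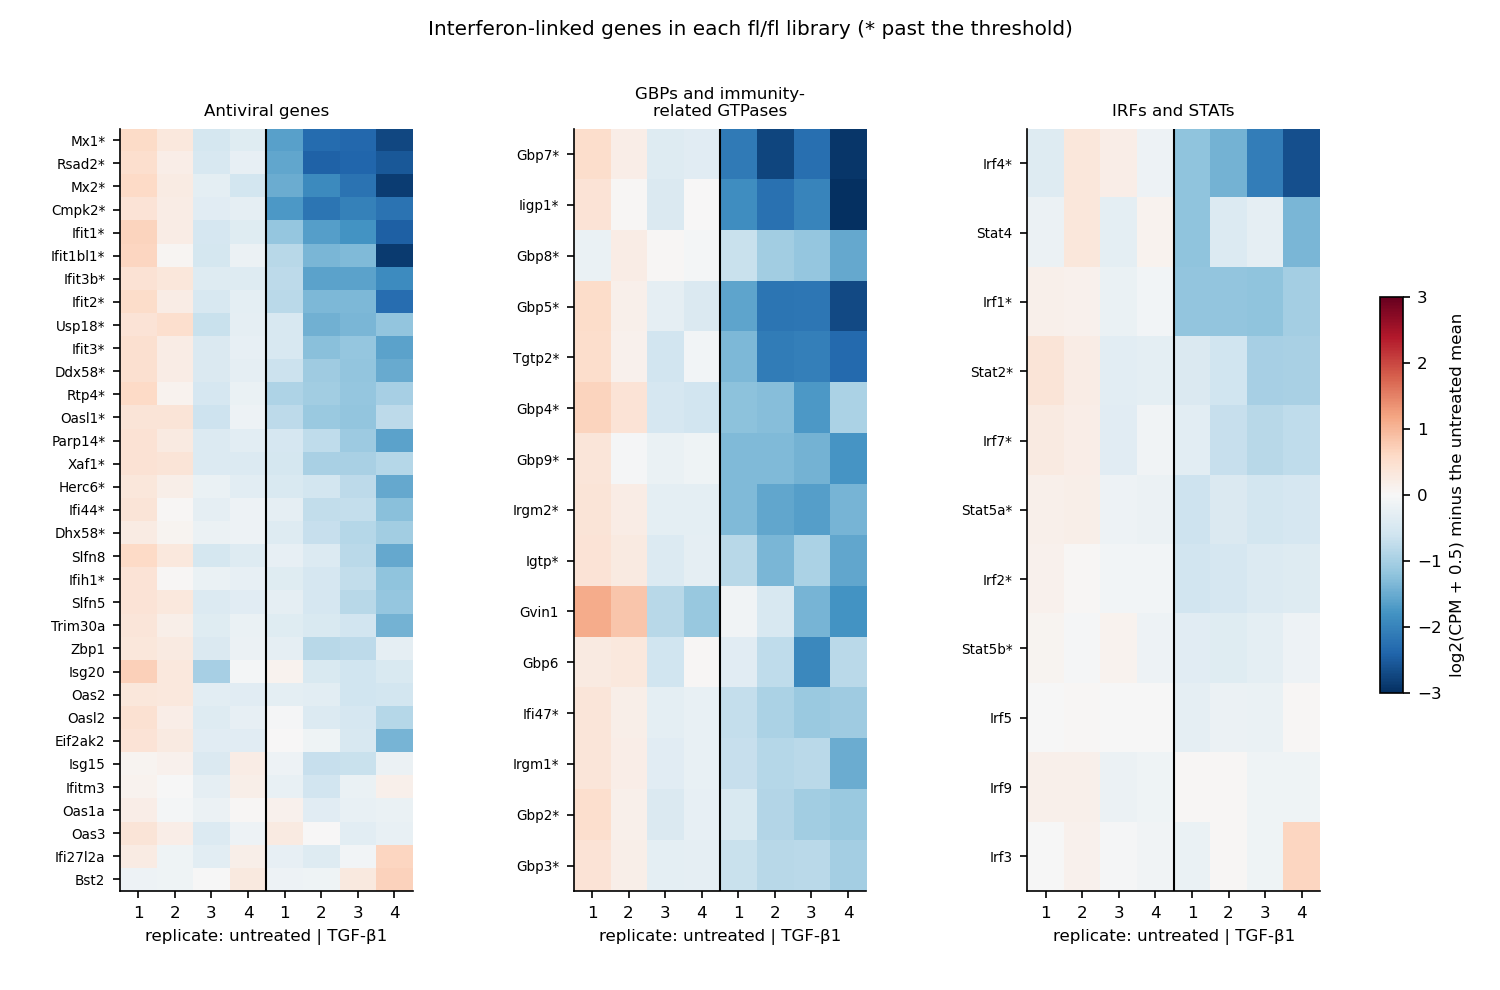
Log2(CPM + 0.5) minus the mean of the untreated libraries in each of the 8 libraries for members of 3 lists of interferon-linked genes, with an asterisk for members past the threshold. Colours stop at 3 log2 in either direction. Blue fills the TGF-β1 columns for guanylate-binding proteins and most antiviral genes, and within the untreated columns replicates 1 and 2 are redder than 3 and 4.

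Promoters of such genes are shown because the interferon-stimulated response element was, of the 8 motifs searched, the one with the largest gap in percent between genes that fell and all genes. Its core TTTCNNTTT, searched on both strands, was in 100 of 750 promoters of genes that fell (13.3%), 64 of 882 of genes that rose (7.26%) and 7.91% of all 9074. It was in all 9 promoters matched for the guanylate-binding list, in 18 of 22 of the antiviral list and in 2 of 11 of the factor and STAT list. Capitals mark the core on either strand and, in Rsad2 alone, also an AP-1 motif (TGANTCA), 87 bases before the start. Each window runs from 200 bases before to 10 from the RefSeq start, GRCm38.p6: Gbp7 chr3:142530136-142530345, plus strand, Irgm2 chr11:58214777-58214986, plus strand, and Rsad2 chr12:26456443-26456652, minus strand.
Gbp7: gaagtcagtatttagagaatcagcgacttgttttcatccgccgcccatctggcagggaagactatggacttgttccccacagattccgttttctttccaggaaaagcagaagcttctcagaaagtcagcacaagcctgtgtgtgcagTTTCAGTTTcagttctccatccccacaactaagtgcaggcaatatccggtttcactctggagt
Irgm2: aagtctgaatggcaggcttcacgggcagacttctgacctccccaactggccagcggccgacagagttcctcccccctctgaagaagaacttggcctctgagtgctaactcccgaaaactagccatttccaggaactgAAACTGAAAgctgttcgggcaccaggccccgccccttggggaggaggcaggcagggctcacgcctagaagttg
Rsad2: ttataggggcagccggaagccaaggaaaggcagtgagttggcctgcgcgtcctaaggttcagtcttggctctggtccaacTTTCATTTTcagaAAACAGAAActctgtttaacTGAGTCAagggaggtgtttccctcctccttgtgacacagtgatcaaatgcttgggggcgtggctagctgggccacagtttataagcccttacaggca
The core began 53 bases before the start in Gbp7, 63 in Irgm2, and 120 and 107 in Rsad2. Other motifs differed less between higher, lower and all promoters: AP-1 was in 6.35%, 7.33% and 4.9%, the PU.1 letters GAGGAAGT in 4.42%, 5.07% and 3.5%, the NF-κB core GGGANTTTC in 0.567%, 1.33% and 1.01% and the E-box CACGTG in 10.8%, 9.47% and 10.3%. A match is a description of letters, not of binding.

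Inflammatory mediators and their sensors fell more often than they rose. Of 16 tested chemokines 9 fell and 2 rose, with a median log2 fold change of -1.06. Ccl3, which attracts monocytes, was at 56.8, 50.1, 46.6 and 58.3 CPM untreated and 13.7, 17.5, 19.1 and 22 CPM treated (-1.55 ± 0.15 log2, edgeR adjusted p = 1.88e-05), and Cxcl10, named after its values were seen, at 157, 108, 63.4 and 82.9 against 22.2, 13, 17.7 and 25.7 CPM (-2.39 ± 0.28 log2, edgeR adjusted p = 1.2e-04). Against them, Cxcl14 rose from 10.4 to 18.1 CPM to 50.1 to 87 CPM (2.31 ± 0.22 log2) and Cxcl16, a scavenger receptor and chemokine, from 103 to 134 CPM to 261 to 325 CPM (1.32 ± 0.12 log2). Of 14 tested chemoattractant receptors 7 fell and 2 rose. Cxcr4, the receptor for CXCL12, rose from 95.7 to 101 CPM to 345 to 418 CPM (1.94 ± 0.09 log2, edgeR adjusted p = 7.62e-08). The neighbouring complement C5a receptors went apart, C5ar1 by -0.85 ± 0.09 log2 and C5ar2 by 0.94 ± 0.18 log2, and the receptor for platelet-activating factor Ptafr fell by 0.73 log2.

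Among 15 tested cytokines 5 fell and 1 rose, and 8 fell without TGF-β1 replicate 4. Il10, an anti-inflammatory cytokine, was low, at 2 to 2.63 CPM untreated and 0.238, 0.154, 0.0955 and 0 CPM treated, and Il15, which sustains NK and memory T cells, fell from 16.8 to 25.6 CPM to 4.97 to 8.45 CPM (-1.58 ± 0.20 log2). The rise was that of Osm, oncostatin M, from 2.81 to 4.77 CPM to 9.98, 8.53, 10.1 and 19.4 CPM (1.70 ± 0.29 log2, edgeR adjusted p = 0.00165). Of 28 cytokine receptors 8 rose and 8 fell. Il17ra rose from 78.9 to 91.3 CPM to 275 to 339 CPM (1.83 ± 0.10 log2) and Il21r by 1.06 ± 0.09 log2, while gp130, Il6st, the shared chain of the IL-6 family, fell from 488, 488, 453 and 417 to 153, 155, 146 and 144 CPM (-1.63 ± 0.08 log2, edgeR adjusted p = 1.61e-07) and its partner Lifr by 1.33 log2. Of 23 NF-κB subunits and feedback genes 12 fell and 3 rose. The kinase gene Ikbke went from 138 to 172 CPM to 54.3 to 62.5 CPM (-1.43 ± 0.10 log2), the inhibitor gene Tnip3 from 65.9 to 95.5 CPM to 14.6 to 28.9 CPM (-2.02 ± 0.20 log2), and the adaptor gene Traf3 rose by 0.73 log2.

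Receptors for microbial products changed in both directions. Of 30 tested Toll-like and NOD-like receptor genes 10 fell and 5 rose. Tlr1 was at 68.6, 57.4, 53.5 and 52.8 CPM untreated and 17, 16.1, 20.5 and 10.1 CPM treated (-1.86 ± 0.19 log2, edgeR adjusted p = 3.29e-05), whereas Tlr2, with which it pairs to sense bacterial lipopeptides, was at 433, 392, 300 and 341 against 623, 636, 492 and 521 CPM (0.63 ± 0.13 log2, edgeR adjusted p = 0.005). Tlr4, the endotoxin receptor, named after its values were seen, went from 149 to 186 CPM to 33.3 to 69.3 CPM (-1.55 ± 0.19 log2), the peptidoglycan sensor Nod1 fell by 1.78 log2 and the bacterial protein sensor Naip2 rose by 1.06 log2. Among 16 C-type lectins 10 fell, with Clec4a1 at 119 to 174 against 22 to 34.9 CPM (-2.32 ± 0.17 log2) and Clec4n, dectin-2, at 77.2 to 99.2 against 26 to 39.7 CPM (-1.36 ± 0.13 log2). The member that rose was Cd207, langerin, the lectin of Langerhans cells, from 0.234, 0.285, 0.423 and 0.407 to 3.8, 4.21, 4.3 and 3.1 CPM (3.46 ± 0.31 log2, edgeR adjusted p = 1.34e-05), and 2 rose without replicate 4.

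Surface molecules that tune T cells and myeloid cells changed in both directions. Of 18 co-stimulatory and checkpoint molecules 10 fell and 3 rose. Cd276, B7-H3, went from 12.1 to 14 CPM to 63.7 to 75.9 CPM (2.39 ± 0.10 log2, edgeR adjusted p = 5.22e-08) and Havcr2, TIM-3, from 19.6 to 29.5 CPM to 60.5 to 96.5 CPM (1.82 ± 0.17 log2), while the inhibitory receptor Cd200r1 fell by 1.44 log2. Of 22 inhibitory and activating receptors 4 rose and 5 fell. Cd300lf, an inhibitory lipid-binding receptor, rose from 1.96 to 3.37 CPM to 37.5 to 50.5 CPM (4.13 ± 0.19 log2, edgeR adjusted p = 9.22e-08) and the activating receptor Trem1 by 2.82 ± 0.36 log2, while Pirb fell by 0.89 log2 and Clec4a2 by 1.61 log2. Of 18 uptake and scavenger receptors 5 rose, among them Axl, a receptor for apoptotic cells (150 to 203 against 347 to 411 CPM, 1.15 ± 0.11 log2), and Scarb2 (0.95 ± 0.08 log2). Cd163, which takes up haemoglobin, fell from 18 to 23.9 CPM to 2.61 to 5.07 CPM (-2.58 ± 0.21 log2, edgeR adjusted p = 7.14e-06), and Msr1 by 0.67 log2. Markers of alternative activation, 3 higher and 3 lower of 12, included the crosslinking enzyme gene Tgm2, from 27 to 33.3 CPM to 163 to 228 CPM (2.64 ± 0.12 log2), and the interleukin 4 receptor Il4ra (0.80 ± 0.09 log2).

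Few antigen presentation genes passed the threshold, which does not show that the others were unchanged. Of 13 MHC class II presentation genes only Ciita, the master activator of that set, passed, falling from 4.69 to 9.83 CPM to 1.53 to 2.61 CPM (-1.86 ± 0.28 log2, edgeR adjusted p = 6.45e-04), and 2 fell with the block. Of 20 class I genes 2 fell, H2-Q4 among them (-0.51 ± 0.10 log2), 4 without replicate 4, and 1 rose with the block. Of 15 SOCS and feedback genes 2 rose, including Socs6 (0.76 ± 0.13 log2), and 1 fell (3 without replicate 4 and 2 with the block). None of 14 MAP kinase phosphatases and Sprouty-type inhibitors rose and 4 fell, with Spred1, an inhibitor of Ras to ERK signalling, from 128 to 172 CPM to 20.5 to 33.1 CPM (-2.35 ± 0.16 log2, edgeR adjusted p = 1.71e-06), and 1 rose without replicate 4.

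Genes of adhesion, matrix and cell shape changed selectively. Of 26 tested integrins and adhesion genes 7 rose and 3 fell (5 without TGF-β1 replicate 4). F11r, the junctional molecule JAM-A, went from 10.5, 11.2, 11 and 9.37 to 85, 83.9, 80.8 and 88.3 CPM (3.01 ± 0.10 log2, edgeR adjusted p = 9.62e-09), with almost no spread, while Itga4, the α4 integrin subunit, fell from 571 to 929 CPM to 194 to 398 CPM (-1.21 ± 0.22 log2). Of 21 tested matrix genes, from 36 listed, 6 rose and 1 fell (3 with the block), among them the collagen prolyl hydroxylase P4ha1 (0.83 ± 0.09 log2). Among proteases 4 of 15 rose and 4 fell. The gelatinase Mmp2 went from 0.936, 0.741, 0.931 and 0.856 to 13.4, 12.5, 15.8 and 22.1 CPM (4.19 ± 0.24 log2, edgeR adjusted p = 3.45e-07) and the collagenase Mmp13 from 22.1 to 30.6 CPM to 6.21 to 9.76 CPM (-1.63 ± 0.17 log2), and Adam15 rose by 0.55 log2. Of 20 complement and coagulation genes 3 rose and 2 fell (4 with the block), the falls being C5ar1 and the anticoagulant receptor Thbd (-0.92 ± 0.15 log2). Of 29 actin and podosome genes 5 rose and 3 fell (5 without replicate 4), with the LIM protein Pdlim7 at 3.63 to 6.72 against 22.8 to 37.8 CPM (2.43 ± 0.21 log2) and vinculin, Vcl, at 19.1 to 21.1 against 10.7 to 12.8 CPM (-0.77 ± 0.11 log2).

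Growth factors and guidance molecules included some of the steeper changes. Of 14 growth and angiogenic factors 5 rose and 2 fell. Pdgfa was at 13.5, 15, 14.4 and 17.5 CPM untreated and 157, 181, 176 and 227 CPM treated (3.61 ± 0.14 log2, edgeR adjusted p = 2.82e-08) and Pdgfb at 67.1 to 78.7 against 197 to 271 CPM (1.72 ± 0.11 log2). Both encode platelet-derived growth factor chains, which act on fibroblasts and pericytes. The anti-angiogenic gene Vash1, named after its values were seen, went from 2.68 to 3.63 CPM to 27.2 to 30.8 CPM (3.22 ± 0.14 log2). Of 21 semaphorins, plexins and other guidance genes 5 rose and 4 fell, and 8 rose without replicate 4. Sema6d fell from 8.95, 9.18, 9.36 and 9.09 to 0.535, 1.13, 0.668 and 0.466 CPM (-3.69 ± 0.26 log2, edgeR adjusted p = 1.9e-06), and neuropilin 1, Nrp1, a co-receptor for semaphorins and VEGF, from 716 to 770 CPM to 218 to 272 CPM (-1.56 ± 0.09 log2, edgeR adjusted p = 3.56e-07). Sema4c rose by 1.22 log2 and the ephrin receptor Epha2 by 3.02 ± 0.58 log2, from at most 0.339 CPM to between 0.772 and 2.64 CPM.

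Receptors for vasoactive and lipid ligands turned over in both directions, 6 of 25 tested rising and 9 falling. Htr2b, a serotonin receptor, went from 2.75, 2.51, 3.56 and 2.61 to 38.3, 37.5, 41.6 and 24.8 CPM (3.63 ± 0.20 log2, edgeR adjusted p = 2.56e-07), and S1pr1, a sphingosine 1-phosphate receptor, from 50.6 to 61.4 CPM to 158 to 178 CPM (1.53 ± 0.09 log2). Ednrb and the proton-sensing Gpr65 (-1.48 ± 0.17 log2) fell. Rhov, an atypical small GTPase, rose from 0.702 to 2.81 CPM to 12.8 to 25.9 CPM (3.34 ± 0.37 log2) while its relative Rnd3 fell. Rgs12 rose by 1.42 log2. Of 17 eicosanoid synthesis genes 6 rose and 3 fell (1 without replicate 4): cyclooxygenase 1, Ptgs1, went from 54.6 to 66.3 CPM to 168 to 182 CPM (1.51 ± 0.09 log2), Pla2g15 rose by 0.61 log2 and the phospholipase Pla2g4a, which frees arachidonate, fell by 1.19 log2.

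None of 19 iron-handling genes rose (1 without replicate 4) and 7 fell. Beside Slc40a1, Cd163 and Hmox1, the transferrin receptor Tfrc fell from 81, 77.3, 92.4 and 99.5 to 31.4, 36, 40.2 and 11.5 CPM (-1.55 ± 0.29 log2, edgeR adjusted p = 0.00322), lowest in replicate 4. Tfrc was also the only 1 of 20 common reference genes to pass (2 with the block). None of 31 cholesterol and fatty acid synthesis genes rose and 11 fell, or 18 with the block. Among the falls was Sqle, the enzyme squalene epoxidase, at -0.68 log2. Of 16 liver X receptor targets 4 rose, such as the exporter Abca1 (678 to 782 against 1146 to 1290 CPM, 0.74 ± 0.08 log2) and Mylip, which degrades the LDL receptor (1.13 ± 0.08 log2), and Lpl fell. Of 29 glycolytic genes 5 rose and 2 fell (4 without replicate 4): hexokinase 2, Hk2, rose from 45.8 to 60.1 CPM to 280 to 331 CPM (2.52 ± 0.10 log2, edgeR adjusted p = 4.93e-08) and Pfkfb3, which drives glycolytic flux, by 0.67 log2.

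Stress and cell-cycle lists held few steep changes. Of 20 tested p53 targets 7 fell and 2 rose. Pmaip1, the death-promoting NOXA, went from 14.8 to 16.6 CPM to 2.85 to 4.06 CPM (-2.20 ± 0.15 log2, edgeR adjusted p = 1.44e-06) and the kinase gene Plk2 from 31.8 to 64.7 CPM to 8.85 to 13 CPM, while Gadd45a (1.26 ± 0.21 log2) and Mdm2 (0.42 ± 0.09 log2) rose. Of 20 BCL2-family and caspase genes 2 rose and 2 fell, with Bmf at 67.8 to 75.3 against 136 to 171 CPM (1.08 ± 0.09 log2) and Bid at 38.1 to 42.9 against 18.4 to 20 CPM (-1.10 ± 0.09 log2), both promoters of cell death. Of 26 oxidative stress genes 7 fell, with glutathione reductase, Gsr, at -1.03 ± 0.14 log2 and Txnip at -0.73 ± 0.10 log2, and 2 rose, the glutathione synthesis gene Gclm (0.90 ± 0.09 log2) and the oxidase subunit Ncf1 (0.90 ± 0.09 log2). Of 22 unfolded-protein and stress-response genes 5 fell, among them Herpud1 (-0.94 ± 0.13 log2) and the sensor Atf6 (-0.66 ± 0.09 log2), and none rose. Of 24 cyclins and growth regulators 6 fell and 2 rose, with the kinase Cdk6 at -1.05 ± 0.11 log2, Rbl1 at -0.74 ± 0.16 log2, E2f2 at 1.75 log2 and Mxi1 at 0.67 ± 0.12 log2. Of 30 replication and mitosis genes 3 rose (5 without replicate 4), with the origin-licensing factor Cdt1 at 1.88 log2 and Mcm6 at 54.4 to 66.3 against 106 to 111 CPM (0.88 ± 0.09 log2), and none fell (1 with the block). Of 15 clock genes 5 rose and none fell, with Nr1d1 at 1.38 ± 0.19 log2 and Per2 at 0.89 ± 0.18 log2.

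None of 30 tested cytosolic ribosomal protein genes passed, 1 of 30 oxidative phosphorylation genes did (2 with the block) and 1 of 15 pentose phosphate and serine pathway genes (3 with the block). The first, the respiratory subunit gene Sdhb (0.39 ± 0.12 log2, edgeR adjusted p = 0.0383), missed the threshold when any library other than TGF-β1 replicates 2 and 4 was left out, at edgeR adjusted p from 0.0516 to 0.12. The second, G6pdx, the entry enzyme of the pentose pathway (-0.27 ± 0.08 log2, edgeR adjusted p = 0.0394), missed it when any library other than TGF-β1 replicate 4 was left out, at edgeR adjusted p from 0.0584 to 0.114. The ribosomal protein, oxidative phosphorylation and pentose lists each had a smaller share called than the 17.7% of all tested genes. Of 29 lysosomal genes 3 rose and 4 fell, with Ctsh at 77 to 81.7 against 133 to 156 CPM (0.90 ± 0.08 log2) and Ctsc at -0.46 ± 0.09 log2. Of 24 autophagy genes 3 rose, Wipi1 among them (0.69 ± 0.09 log2), and none fell, or 5 and 2 without replicate 4 and 4 and 1 with the block. Of 16 osteoclast genes 2 rose and 2 fell: the proton-pump subunits went apart, Tcirg1 by 0.46 ± 0.09 log2 and Atp6v0d2 by -1.31 ± 0.20 log2, and Tnfrsf11a, the receptor for the osteoclast factor RANKL, fell from 66.6 to 83.3 CPM to 44.4 to 55.4 CPM (-0.64 ± 0.11 log2, edgeR adjusted p = 0.00185).

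Some genes that changed lay next to each other on a chromosome. Runs of at least 3 neighbouring tested genes all rose at 40 places, with 135 of the 1169 higher genes, and all fell at 36 places, with 132 of the 1035 lower genes. How many runs chance placement gives was not tested. The longest, 9 genes on chromosome 1 from 173630859 to 174031755, lay in the Ifi200 cluster of interferon-induced DNA sensors. It ran from Pyhin1 to Ifi205, with falls of 0.93 to 2.33 log2. A run by definition holds only genes called in 1 direction. Further falling runs with related genes were 6 genes on chromosome 11 from 83525778 to 83706268 with Ccl5, Ccl9, Ccl6, Ccl3, Ccl4 and Wfdc17, 4 on chromosome 3 from 142496934 to 142638008 with Gbp5, Gbp7, Gbp3 and Gbp2, and 6 on chromosome 6 from 123049962 to 124330527 with 5 C-type lectins and Cd163. Near-identical copies in such families can share reads, which makes their separate values less certain. Among the rising runs were Id3, E2f2 and Asap3 on chromosome 4 from 136143497 to 136245216, and Tmeff1 with Msantd3 and Murc from 48539935 to 48673502 on the same chromosome.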

How the data were processed

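The deposited count table holds the authors' raw read counts, and the deposited FPKM table equals those counts divided by gene length and library total (100% of values within 0.1%). The tools named in the submitters' processing notes are Cufflinks 2.1.1, HTSeq 0.6.1 and TopHat2 2.0.9, the builds GRCm38.p6 and mm10, and strand and multi-mapping options are not given in the sources used here. The 8 fl/fl libraries were fitted alone with edgeR 4.0.16 in R 4.3.3 (TMM scaling, edgeR's own expression filter, robust quasi-likelihood F-test, Benjamini-Hochberg over 12446 genes, threshold 0.05). They were fitted alone because these groups are the subject. Earlier work on these data also reported that a knockout untreated library, replicate 1, stood apart, which was not examined here. CPM use TMM-scaled totals, and the precision of each value is limited by the counts behind it.

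Named genes are Smad7, the 10 steepest rises and falls among called genes with a group mean of at least 10 CPM, the 10 largest FPKM rises and falls, and per list up to 2 called members in each direction with the lowest p, or else the member with the lowest p. The steepest and FPKM rankings took called genes only, and also required no overlap in CPM between the groups and a characterised symbol. Pseudogenes were left out of both rankings. Some named genes are not printed. The members and lists were chosen with earlier results of these data known.

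Same-numbered libraries deviated together (correlations 0.149 to 0.29 over genes, all over 0.1), and a fit with the replicate number as a block was an alternative. Some libraries with different numbers correlated as much or more, untreated 1 with TGF-β1 2 at 0.367 and untreated 3 with TGF-β1 4 at 0.232. All correlations within numbers 1 and 2, or within 3 and 4, were positive (0.0963 to 0.367). All those across these sets were negative (-0.0158 to -0.355). The values therefore do not single out pairs of the same number. The reported p-values come from the fit without a block. Other alternatives used DESeq2 1.42.0, limma 3.58.1 on log2 FPKM, other scalings and filters, all 16 libraries, and each library left out. On data simulated for this comparison (12446 genes), 86% of 2-fold rises, 68% of 2-fold falls and 98% of 4-fold changes in either direction were recovered, with 10 false calls. The simulated counts were independent between libraries, with no library set apart. Only 50 genes were changed at each fold, none of them among the genes of lowest level. The rates hold for that setting and are not error rates of the real comparison.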

Additional observations from a re-analysis of the deposited data

Results flagged for a closer look

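In 21 of 387 groups of 4 libraries examined, 1 library lay far from the other 3, its gap to the nearest, as a share of the group's whole range, exceeding Dixon's critical value for 4 samples. Chance gives about 1 in 20. TGF-β1 replicate 4 was that library in 11 cases. Its number of genes with a count was 14915 against 16688 to 17017 in the other TGF-β1 libraries. Lower in it than in the other 3 were Acvr2a (4.66 CPM against 9.56 to 9.98), Cd28 (10.9 against 25.3 to 27.4), Gp49a (77.1 against 159 to 173), Msr1 (53.3 against 70.7 to 73.9) and Spred1 (20.5 against 32.7 to 33.1). Higher in it were Itgb5 (1271 CPM against 1093 to 1120), Ncf1 (666 against 571 to 574), Notch1 (446 against 387 to 393), Osm (19.4 against 8.53 to 10.1) and Tgfb1 (511 against 408 to 424). Among the other TGF-β1 libraries, Rsad2 stood at 88.7 CPM in replicate 1 against 44.5 to 49.9, and replicate 3 stood apart for S1pr1 (178 CPM against 158 to 161) and Vwf (97.3 against 133 to 136).

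Among untreated libraries, replicate 1 was the highest for Acvr1 (21.9 CPM against 17.8 to 18.4), Clec4a2 (147 against 105 to 111) and Il21r (82.4 against 73.9 to 75.0). Replicate 3 was low for Rbpj (170 against 227 to 236). Replicate 4 was high for Herpud1 (65.8 CPM against 59.7 to 60.4) and Mmp13 (30.6 against 22.1 to 23.5) and low for Notch1 (109 against 136 to 141).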

How the results depend on the processing

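Counts of changed genes stayed within 1.5 times of 2204 under every alternative but 1: requiring a change of more than 2-fold in the test itself left 349 changed genes, 229 higher and 120 lower. Leaving out each library in turn gave 1671 to 2812 changed, 928 to 1482 higher and 743 to 1330 lower genes, the most without TGF-β1 replicate 4. The other alternatives gave 2007 (no filter) to 2655 (DESeq2) changed genes, among them 2019 with all 16 libraries and 2202 without genes resembling ribosomal RNA, an alternative chosen after seeing the data. When a change of more than 2-fold was required, 105 of the 194 called genes that the naming rule takes no longer passed, the most of any alternative, and neither did 4 of 20 reported genes outside the rule. Gm26917 no longer passed with 15 or 16 libraries. No gene called in both the reported fit and an alternative had opposite directions. The replicate block called 2470 genes, 1267 higher and 1203 lower, and beside the list counts given above it changed no call of a named gene. Of 194 genes that the naming rule takes and that passed, 176 passed in all 8 fits with a library left out, and 193 without TGF-β1 replicate 4, with no change moving by over 1.5 times. With all 16 libraries 19 no longer passed, among those reported Ctsd, Lipa, Cat, Tlr2 and G6pdx, and with 15, without knockout untreated replicate 1, 7. With log2(FPKM + 1) in limma 7 were lost, Ctsd, Itgb8 and Sdhb among those reported, and with no filter 7, including Yam1, Lars2 and Lilrb4. The cause was not tested. The depth of 16865591 to 23741079 counts and 4 libraries a group limit what can be called among small changes and genes of few counts.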
